A study of Mus musculus with 2 samples.

Results

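Wnt ligands, their receptors, the secreted antagonists and the intracellular effectors of the pathway were read in the mouse ventral prostate, with and without the U19/Eaf2 gene. Members were chosen by gene symbol alone. They were the Wnt, Fzd, Sfrp and Dkk families and 17 further pathway genes, each represented by the brightest of its probe sets that carry a single gene symbol. The choice used no difference between the samples, though it was made with earlier results of these data known. The rule found 53 genes with 105 probe sets, of 18193 genes with such probe sets. Of the 17 genes listed by name 16 were found, and Tcf7 was not analysed here.

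The tissue was the ventral prostate taken at an age of 3 months from male mice of the C57BL/6J background, a secretory lobe of the mouse gland that depends on androgen. One sample had the genotype U19/Eaf2 +/+ and is called wild type, and the other had the genotype U19/Eaf2 -/- and is called the knockout. Eaf2, ELL-associated factor 2, is an androgen-responsive partner of the ELL elongation factors. Each group held 1 array, so there is no replicate, and no test between groups was possible. The labels name neither the way the allele was made nor the number of animals behind each sample.

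The values are linear probe-set signals in arbitrary units, set to a common trimmed mean on both arrays. A floor of 166, the 50th percentile of all non-control signals over both arrays, stood for the level below which signals were not read. Signals below it were raised to it before a ratio was taken, and a ratio with 1 array below it is a bound, written as at least so many fold. Ratios are log2 of the knockout signal over the wild-type signal. The signal of Eaf2 itself was 691 in wild type and 702 in the knockout, a log2 ratio of 0.02. The labels do not say which stretch was deleted, so this probe set cannot check the label, and every direction below rests on the label of the knockout array. Luminal epithelial markers fitted the tissue label, with 11 of 11 measured genes above the floor on both arrays, and all 6 measured seminal vesicle markers lay below it on both. The 3' over 5' signal ratio of the control probe sets, a guide to RNA degradation, was 1.25 and 1.65 for Actb and 0.714 and 0.847 for Gapdh, in wild type and knockout.

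Wnt proteins are secreted lipid-bearing ligands that bind Frizzled receptors together with the co-receptors LRP5 and LRP6. Without a ligand, a complex built on Axin and APC holds beta-catenin while kinases including GSK3 mark it for destruction. Receptor binding recruits Dishevelled, the complex is inhibited, and beta-catenin enters the nucleus to work with TCF/LEF factors. In the prostate the pathway is known for its part in budding of the gland and in exchange between stroma and epithelium, and SFRP, DKK and WIF1 proteins limit it outside the cell.

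No member that could be read on both arrays differed by 2-fold between them. Of the 53 members, 33 reached the floor on at least 1 array, 29 of them on both, and 20 were below it on both. Among the 33, 0 were higher and 0 were lower by 2-fold, where 0.591% and 0.883% of all 11671 genes above the floor were. The 4 members with a bound, Fzd8, Wnt3a, Wnt8b and Dkk3, may differ by more than their bound. At 1.5-fold, 2 members were higher (Fzd8 and Tcf7l1) and 4 were lower (Dvl2, Fzd10, Wif1 and Sfrp5), against a background of 4.69% higher and 6.26% lower. The 2 higher members are 6.06% of the 33, close to that background, and the 4 lower are 12.1%. These 1.5-fold counts depended on the scaling. Under median centring Wif1 and Sfrp5, at -0.48 and -0.42, fell short of 1.5-fold, and Axin1 and Gsk3a, at 0.73 and 0.72, passed it. Under quantile normalization and loess Sfrp5 fell short and Axin1 passed. In all, 20 members had a log2 ratio below 0 and 13 above, and 53.0% of all genes had one below 0 and 47.0% one above. The median over the 33 was -0.02, as it was -0.03 over all genes. Centring both arrays on their medians turned the members' split to 18 higher and 13 lower of 31, as it moved the median of all genes from -0.03 to 0.16. The members' log2 ratios ran from -0.87 to 0.88, with an SD of 0.424 over genes, against 0.373 over all genes. Probe sets of the same gene varied around their gene's mean log2 ratio with a pooled SD of 0.357, over the 4497 genes with 2 or more of them above the floor on both arrays, and 20 of the 29 members above the floor on both arrays had a ratio smaller than that SD in either direction. This SD is the only measure of error in the data, and it leaves out animals, dissection and hybridisation.

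**Figure D1:**
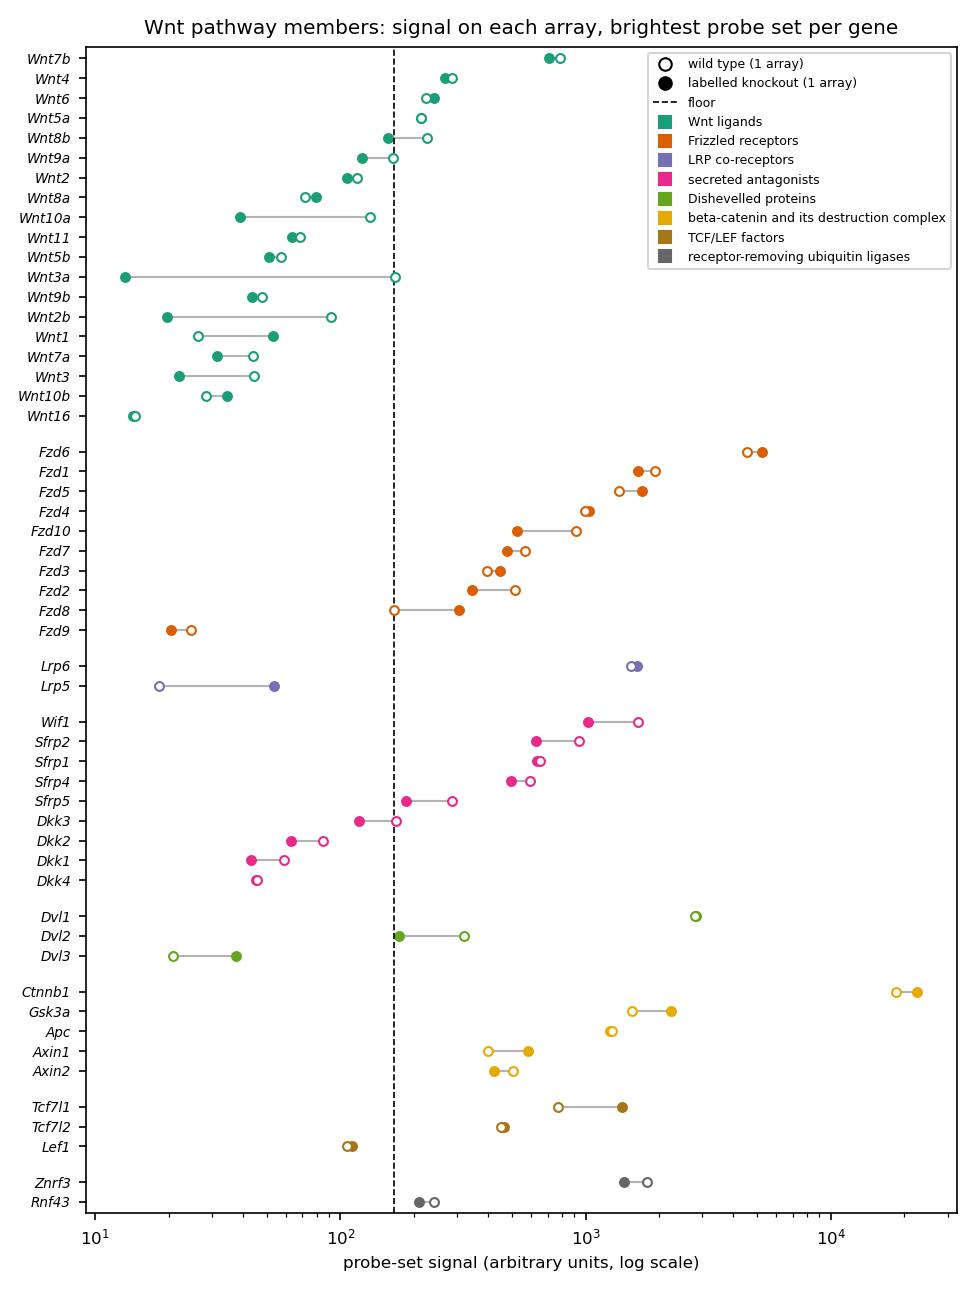
Signal of each member's brightest probe set on the wild-type array (open circle) and the array labelled knockout (filled circle), on a log axis in arbitrary units, grouped by role, with the floor of 166 as a dashed line. Most Wnt ligands lie left of the floor, while 9 of 10 Frizzled genes reach it.

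The secreted antagonists capture Wnt proteins or block the co-receptor. All 6 that reached the floor, of 9 on the array, were lower in the knockout, with a median log2 ratio of -0.42. Of all genes above the floor 53.0% were lower. Wif1, Wnt inhibitory factor 1, which binds Wnt proteins directly, read 1639 in wild type and 1026 in the knockout, 1.60-fold lower by the single probe set it has. Sfrp2, a secreted Frizzled-related protein of fibroblasts, read 944 and 631, a log2 ratio of -0.58. Sfrp5, of the same family, read 285 and 186, 1.54-fold lower, and its second probe set above the floor read 242 and 33.8, a log2 ratio of -0.54 as a bound.

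Sfrp4 read 596 and 495, a log2 ratio of -0.27. Sfrp1, a stromal regulator of prostate growth, read 651 and 632 in its brightest probe set, a log2 ratio of only -0.04. Its other 3 probe sets above the floor were lower by more, with log2 ratios from -0.41, a bound, to -0.35. Dkk3, a Dickkopf relative, read 168 and 119, which puts it next to the floor with a bound of -0.02. Counted by probe set, 10 of 10 above the floor were lower in this group, against 54.8% of all single-symbol probe sets. These 10 come from only 6 genes, 4 from Sfrp1 and 2 from Sfrp5, so they are not independent. The direction of the group held under every scaling except for Sfrp1, which turned to 0.15 under median centring and to 0.01 under quantile normalization, so that 4 of 5 were then lower, Dkk3 no longer reaching the floor. Dkk1, Dkk2 and Dkk4 were below the floor on both arrays, at 43.2 to 85.2.

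Markers of smooth muscle and fibroblasts were mostly lower on the same array, as were 53.0% of all genes above the floor. Of 12 smooth muscle markers 11 were lower, with a median of -0.54, and their summed signal was 58639 in wild type and 44218 in the knockout, a ratio of 0.754. None of the 12 was below the floor. Of 11 fibroblast and matrix markers above the floor 10 were lower, with a median of -0.17 and a summed signal of 29646 and 24715, a ratio of 0.834, and Pi16 was below the floor on both. The summed signal of the 9 antagonists was 4472 and 3239, a ratio of 0.724. Summed signals, here and below, include genes below the floor, such as Dkk1, Dkk2 and Dkk4. The largest drops in the antagonist sum were those of Wif1, from 1639 to 1026, and Sfrp2, from 944 to 631, while Sfrp1 read 651 and 632. The contractile gene Cnn1 read 2326 and 1271, and the fibroblast receptor Pdgfra 1946 and 1130. Their log2 ratios, -0.87 and -0.78, were among the lowest of their lists. In the same lists Acta2 had -0.30, Col1a1 -0.05 and Dcn -0.03, while Lmod1 and Fbln1 were higher, at 0.04 and 0.09. Luminal markers summed to 228581 and 219862, a ratio of 0.962. The marker lists, here and below, were read with the deposited scaling only. Median centring moved the median of all genes from -0.03 to 0.16. That shift is larger than the fibroblast median and smaller than the smooth muscle median. The part of these markers in the lower antagonist signals was not tested, and in bulk tissue fewer cells of a type and less RNA per cell cannot be told apart.

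The sequence before the start of 2 of these antagonists is shown because SFRP and WIF genes are known for CpG-rich promoters. Tcf7l1, a member that was higher, stands beside them. The windows are the 250 bases before the RefSeq start in GRCm38.p6, 5′ to 3′ on the strand of the gene, with each CpG in capitals.
Sfrp5, chr19:42202253-42202502, minus strand: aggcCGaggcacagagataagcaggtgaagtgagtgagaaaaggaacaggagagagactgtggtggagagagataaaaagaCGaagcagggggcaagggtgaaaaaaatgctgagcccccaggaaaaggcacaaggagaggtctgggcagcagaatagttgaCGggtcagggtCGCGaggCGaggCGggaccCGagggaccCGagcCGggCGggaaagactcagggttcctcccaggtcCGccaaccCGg
Wif1, chr10:121033754-121034003, plus strand: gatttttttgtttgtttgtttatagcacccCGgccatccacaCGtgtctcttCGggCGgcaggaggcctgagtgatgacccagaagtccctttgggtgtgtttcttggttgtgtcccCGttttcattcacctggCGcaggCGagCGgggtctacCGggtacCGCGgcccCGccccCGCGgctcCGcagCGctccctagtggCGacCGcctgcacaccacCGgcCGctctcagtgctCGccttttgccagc
Tcf7l1, chr6:72789046-72789295, minus strand: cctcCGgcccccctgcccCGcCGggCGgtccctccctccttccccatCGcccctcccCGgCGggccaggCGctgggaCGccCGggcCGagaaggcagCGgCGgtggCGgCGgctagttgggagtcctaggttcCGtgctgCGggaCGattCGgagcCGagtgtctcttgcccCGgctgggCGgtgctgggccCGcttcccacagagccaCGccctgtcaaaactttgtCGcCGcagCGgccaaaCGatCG
The Sfrp5 window held 13 CpG and was 59.6% G or C, the Wif1 window held 21 and was 62.8%, and the Tcf7l1 window held 29 and was 73.6%. The median over all 32851 windows of the table was 6 CpG and 52.4%, and over the 45 windows of the 36 members listed there it was 21 and 66.8%. Whether CpG content went with direction among the members listed there was not tested. Each higher member listed there except Gsk3a, with 9, had a window of more than 21 CpG, though another Tcf7l2 window held 7. The higher members Axin1, Fzd3, Fzd6, Fzd8 and Lrp6 were not listed. Among lower members Axin2, Fzd10, Wnt3a and Wnt4 also held more than 21, at 24, 37, 41 and 44. The other lower members listed held 21 or fewer, with Sfrp2 at 16 and a Rnf43 window at 2. DNA methylation was not measured.

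Among the Wnt ligands, 6 of 19 reached the floor and 13 stayed below it on both arrays. Wnt7b, an epithelial ligand, read 785 and 712, a log2 ratio of -0.14, and its next brightest probe set read 289 and 169, a log2 ratio of -0.78. Both Wnt7b probe sets were lower in the knockout, by different amounts. Wnt4 read 284 and 268, a log2 ratio of -0.09, but its second probe set read 191 and 283, a log2 ratio of 0.56. Wnt5a, a ligand known mainly for signalling without beta-catenin and for restraint of prostate growth, read 214 and 213. Its second probe set read 154, below the floor, and 255, a bound of 0.62. The direction of both genes thus depended on the probe set.

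Wnt6 read 223 and 240, a log2 ratio of 0.11. Wnt8b read 226 and 156, which is at least 1.36-fold lower. Wnt3a read 167 and 13.2, so that only its wild-type signal touched the floor, and the bound of -0.01 says nothing about its size. Only Wnt6 of the 6 had a positive ratio, but the median of -0.05 turned to 0.05 under quantile normalization and to 0.05 under loess, when Wnt4 and Wnt5a turned positive too, and to 0.11 under median centring, when Wnt7b did as well. By gene order 4 pairs of Wnt genes are direct neighbours, and in no pair did both reach the floor. Wnt6 lies beside Wnt10a, which read 132 and 38.9, and Wnt3a beside Wnt9a, which read 164 and 123. Both genes of the pairs Wnt9b and Wnt3, and Wnt10b and Wnt1, were below the floor on both arrays. The remaining ligands below it were Wnt2, Wnt2b, Wnt5b, Wnt7a, Wnt8a, Wnt11 and Wnt16.

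The Frizzled receptors, the membrane proteins that bind Wnt, were mostly above the floor, 9 of 10, with Fzd9 below it. Of these, 5 were higher and 4 lower, with a median of 0.06, and the same 5 were higher under median centring, quantile normalization and loess. Fzd10 read 911 and 526, 1.73-fold lower, with no other Fzd10 probe set above the floor. Fzd2 read 515 and 344, a log2 ratio of -0.58, and its other 2 probe sets had -0.67 and -0.09, so all 3 were lower. Fzd1 read 1927 and 1636 with a log2 ratio of -0.24, and its other probe set had -0.42. Fzd7 read 569 and 477, a log2 ratio of -0.25.

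At the other end, Fzd8 read 165, just below the floor, and 305, which is at least 1.84-fold higher, with its other probe set below the floor. Fzd5 read 1369 and 1697, a log2 ratio of 0.31, and its other probe set read 105 and 274, a bound of 0.73. Fzd3 read 397 and 449, a log2 ratio of 0.18, and its other 2 probe sets above the floor had 0.17, a bound, and 0.23. Fzd5 and Fzd3 were thus higher by every probe set above the floor. Fzd6 read 4567 and 5238, a log2 ratio of 0.20, but both of its other probe sets were lower, at -0.25 and -0.52. Fzd4, which also serves the ligand norrin in vessels, read 995 and 1037, a log2 ratio of 0.06, with -0.19 in its other probe set. With the median over probe sets in place of the brightest, Fzd4 and Fzd6 turned negative and the family median became -0.25.

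Of the co-receptors, Lrp6 read 1539 and 1616, a log2 ratio of 0.07, and its other probe set read 429 and 259, a log2 ratio of -0.73. Lrp5 was below the floor on both arrays, at 18.1 and 53.7. The ubiquitin ligases Rnf43 and Znrf3, which remove Frizzled receptors from the membrane and are themselves induced by the pathway, were both lower. Znrf3 read 1788 and 1434, a log2 ratio of -0.32, and Rnf43 read 241 and 210, a log2 ratio of -0.20. Under median centring, quantile normalization and loess Rnf43 came close to no difference, at 0.00, -0.04 and -0.04, and the median of the pair was -0.06 under median centring.

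**Figure D2:**
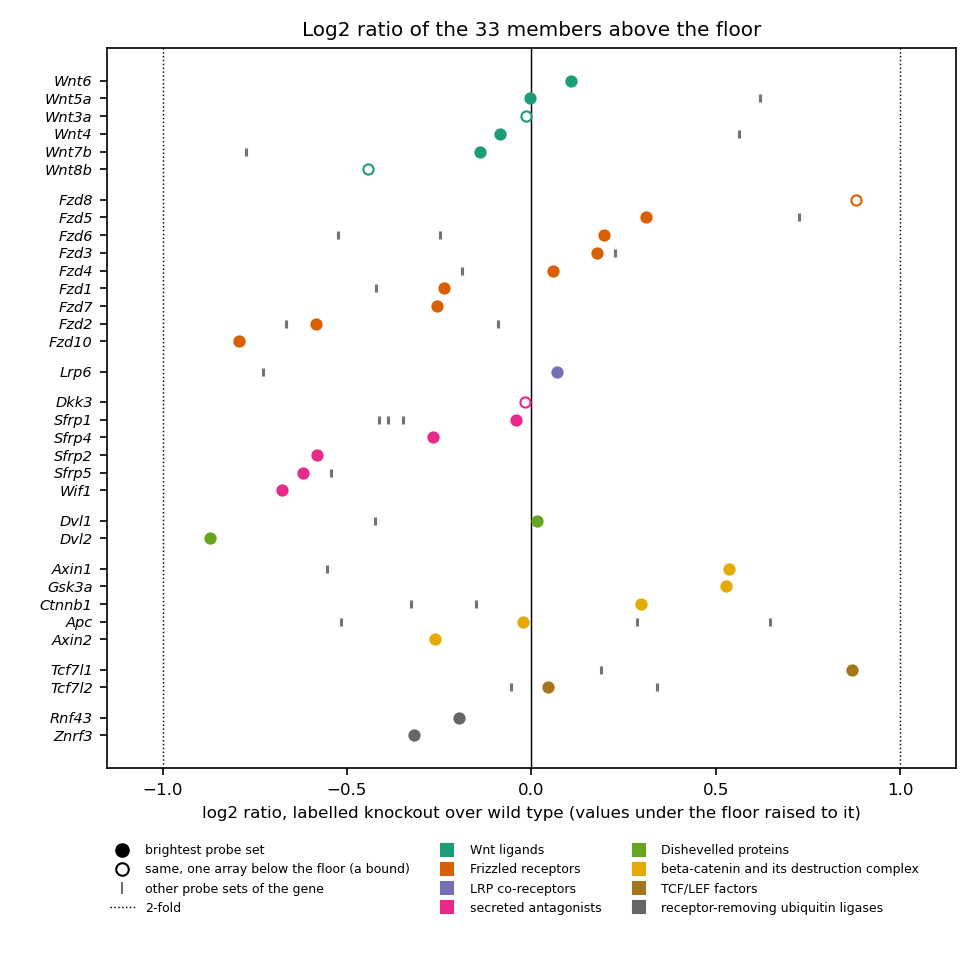
Log2 ratio of knockout over wild type for the 33 members above the floor, with the brightest probe set as a circle (open where 1 array was below the floor) and the remaining probe sets above the floor as ticks. No circle reaches the dotted 2-fold lines, all antagonist marks lie left of 0, and 10 genes have marks on both sides of 0.

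Dishevelled proteins carry the signal from the receptor to the destruction complex. Dvl2 had the lowest log2 ratio of all members, reading 319 and 174, 1.83-fold lower, with its other probe set below the floor. Dvl1 read 2791 and 2820, a log2 ratio of 0.01 that turned to -0.06 under quantile normalization and -0.04 under loess, and its other probe set read 793 and 591, a log2 ratio of -0.42. Dvl3 was below the floor on both arrays, at 20.8 and 37.4.

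Within the destruction complex the brightest probe sets were mostly higher, but other probe sets of the same genes opposed them. Ctnnb1, beta-catenin itself, read 18400 and 22595, a log2 ratio of 0.30. Its other 2 probe sets read 6329 and 5705, and 3242 and 2585, with log2 ratios of -0.15 and -0.33. The direction for beta-catenin mRNA was therefore split between probe sets. Axin1, a scaffold of the complex, read 400 and 580, 1.45-fold higher, and its other probe set read 253 and 173, a log2 ratio of -0.55. Apc, another scaffold, read 1278 and 1257, a log2 ratio of -0.02 that turned to 0.17 under median centring. The other 3 Apc probe sets above the floor spread from -0.52, a bound, to 0.65.

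Gsk3a, a kinase that phosphorylates beta-catenin, read 1548 and 2231, 1.44-fold higher by the single probe set it has. Its relative Gsk3b, which is outside the member rule, read 3531 and 3851, a log2 ratio of 0.12. Axin2, a scaffold whose transcription is a standard readout of beta-catenin activity, read 508 and 423, a log2 ratio of -0.26. Under median centring the Axin2 ratio was -0.07, and its other probe set was below the floor on both arrays. The group's median of 0.30 became -0.01 with the median over probe sets.

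TCF/LEF factors bind DNA and recruit beta-catenin to target genes. Tcf7l1, best known as a repressor of these genes, read 771 and 1409, 1.83-fold higher, the highest ratio of any member measured on both arrays. Its other probe set read 620 and 707, a log2 ratio of 0.19, in the same direction but smaller. Median centring raised the Tcf7l1 ratio to 1.06, which passes 2-fold. Tcf7l2 read 452 and 466, a log2 ratio of 0.04, and its other 2 probe sets above the floor had 0.34 and -0.06. Lef1 was below the floor on both arrays, at 106 and 111.

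TCF/LEF factors recognise short sequences that were searched in the promoter windows, on both strands, as CTTTG followed by 2 bases that are each A or T. Of the 45 member windows 7 held a match, 15.6%, against 14.8% of all windows in the table. Of the 23 windows of members above the floor 3 held one, 13.0%, namely those of Gsk3a, Fzd7, which was lower, and a Tcf7l2 window. Whether a match went with direction was not tested. Of the 4 members with a log2 ratio above 0.5, Fzd8 and Axin1 were not in the table, Tcf7l1 held no match and Gsk3a held one. The Gsk3a window is shown for that reason, with the match in capitals.
Gsk3a, chr7:25237852-25238101, minus strand: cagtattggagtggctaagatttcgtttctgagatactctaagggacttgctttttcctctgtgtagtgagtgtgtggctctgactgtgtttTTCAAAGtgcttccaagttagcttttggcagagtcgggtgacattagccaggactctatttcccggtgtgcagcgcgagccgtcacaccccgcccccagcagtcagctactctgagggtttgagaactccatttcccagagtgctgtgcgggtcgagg
The match, TTCAAAG, is the motif on the other strand and begins 158 bases before the start. The windows of Axin2, Sfrp2, Sfrp5, Wif1 and Tcf7l1 held no match, which says nothing about binding elsewhere. The half-site AGAACA of the androgen receptor, searched on both strands, was in 8 of the 45 windows, 17.8%, against 16.1% of all. Axin2 and Rnf43 were among the members with one.

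Other genes of the pathway were described from fixed lists, by their brightest probe sets only. Each count stands beside a split of 47.0% higher and 53.0% lower over all genes above the floor. Transcripts regarded as direct or frequent beta-catenin targets showed no common direction, with 10 of 20 above the floor higher, 10 lower and a median of 0.00. That median was 0.19 under median centring, 0.10 with a floor at the 70th percentile and -0.20 without suffixed probe sets, those with an s, x or a before the end of their name, when 15 genes were left. Of the 20, Axin2, Rnf43 and Znrf3 are members, and leaving them out gave 10 higher and 7 lower with a median of 0.09. Nkd1, a feedback inhibitor, was highest as a bound of 0.48, reading 166, just below the floor, and 231, and Apcdd1, a membrane inhibitor of Wnt, read 422 and 578, a log2 ratio of 0.45. The lowest outside the members were the matrix protease Mmp7, which read 1022 and 784, a log2 ratio of -0.38, and Tnfrsf19 at -0.30. Myc and Ccnd1, which drive cell growth and division, had -0.02 and 0.15, and the receptor Lgr5 had 0.34. None of the 20 differed by 1.5-fold.

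Genes that act on beta-catenin stability beside the members had a median of 0.14, with 16 of 23 higher and 7 lower. The casein kinase Csnk1g3 read 916 and 1601, 1.75-fold higher, and the ubiquitin protease Usp34 read 2628 and 3878, 1.48-fold higher. Csnk1g2 and Amer1 had the lowest log2 ratios, -0.33 and -0.21. With the median over probe sets the list median became -0.01. Nuclear partners of beta-catenin had a median of 0.09, with 11 of 18 higher. The Groucho-type co-repressors Tle3 and Tle4 read 1593 and 2613, and 1708 and 2751, with log2 ratios of 0.71 and 0.69. The co-activator Bcl9l read 935 and 514, 1.82-fold lower, and the acetyltransferase Crebbp had a log2 ratio of -0.40. The list therefore held wide differences both ways.

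Genes of planar polarity and other signalling without beta-catenin had a median of -0.14, with 12 of 18 lower. The kinase Camk2g read 798 and 486, a log2 ratio of -0.71, and Nfatc3 had -0.48, while the phospholipase Plcb3 was higher by a bound of 0.77 and the kinase Prkca had 0.45. That median turned to 0.05 under median centring. Of the genes for Wnt secretion and R-spondins 5 of 6 were lower, but by little, with a median of -0.05 that became 0.14 under median centring. The Wnt carrier Wls and the acyltransferase Porcn had -0.05 and -0.03, Trabd2b -0.42, Rspo3 -0.09, and the Wnt deacylase Notum 0.35.

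Other Wnt receptors and co-receptors had a median of 0.10, with 6 of 11 higher, but the median turned to -0.02 with no floor, and to -0.06 both with a floor at the 30th percentile and when suffixed probe sets were left out. Ryk, a Wnt-binding receptor, and Tspan12, a partner of Fzd4, had log2 ratios of 0.56 and 0.50, and the glypican Gpc3 and the R-spondin receptor Lgr6 had -0.58 and -0.19. Among other secreted or membrane modulators 4 of 5 were lower, with a median of -0.13. It was 0.20 over the 2 left with the floor at the 70th percentile, -0.48 over 12 with no floor and -0.40 without suffixed probe sets. Tmem88, which binds Dishevelled, read 323 and 195, a log2 ratio of -0.73, and Shisa2 had -0.30, while Apcdd1 had 0.45 and Igfbp4 -0.05. Frzb, a further SFRP-type antagonist outside the rule, was below the floor on both arrays. Lgr5, Nkd1, Notum, Apcdd1 and Sox9 each stand in more than 1 of these lists.

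**Figure D3:**
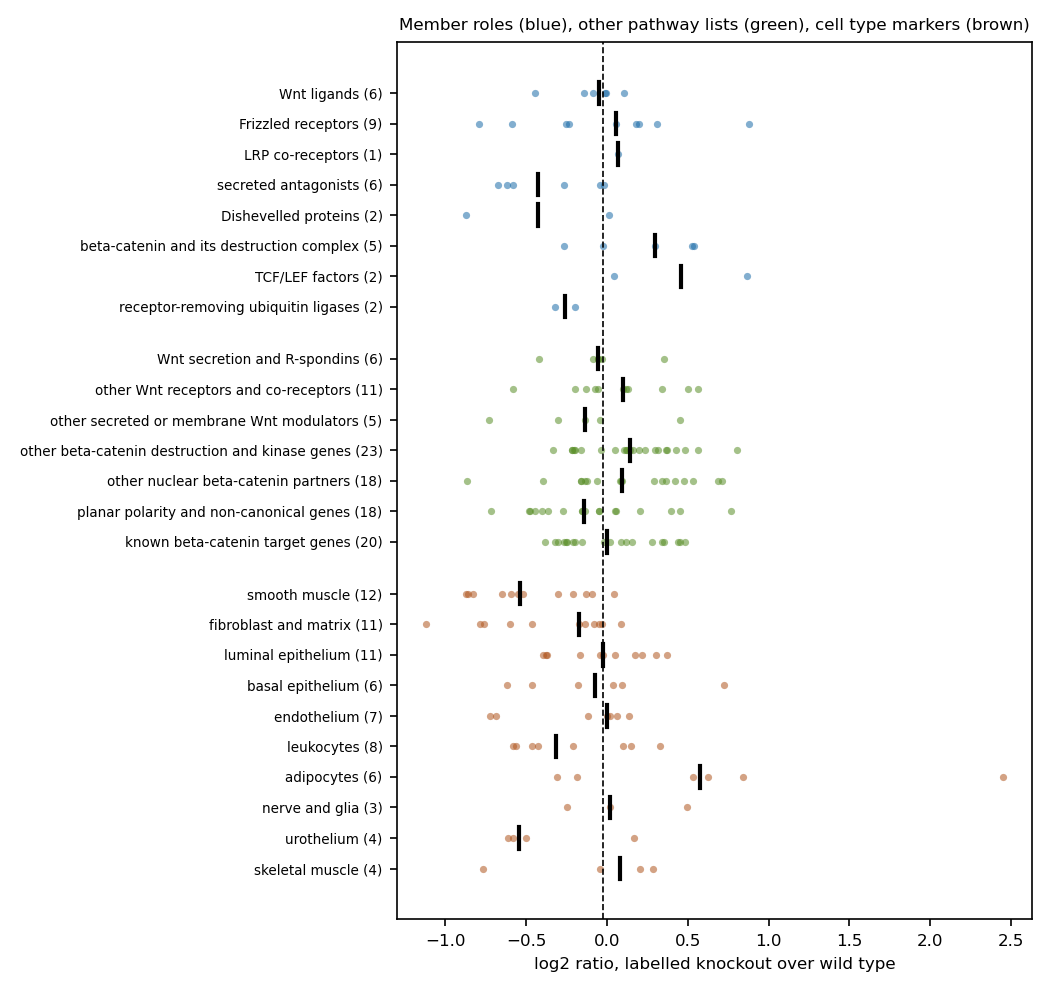
Log2 ratios of the genes above the floor in each member role (blue), other pathway list (green) and cell type marker list (brown), with the number of genes in brackets, a black bar at each median and a dashed line at the median of all genes, -0.03. The antagonist bar lies at -0.42, the smooth muscle and urothelium bars at -0.54, the fibroblast bar at -0.17 and the target gene bar at 0.00.

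Agreement between probe sets was no better among the members than elsewhere. Of 18 members represented above the floor by 2 or more probe sets, 8 had a single direction throughout, or 44.4%, against 42.6% of 5172 genes. The 8 were Fzd1, Fzd2, Sfrp1, Sfrp5 and Wnt7b, lower, and Fzd3, Fzd5 and Tcf7l1, higher. The other 10 were Apc, Axin1, Ctnnb1, Dvl1, Fzd4, Fzd6, Lrp6, Tcf7l2, Wnt4 and Wnt5a. Counted over all 60 member probe sets above the floor, 38 were lower and 22 higher, or 63.3% lower against 54.8% of all single-symbol probe sets. Without the antagonists the median over the remaining 27 members was 0.00.

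Markers of other cells differed in several directions between these arrays, where 47.0% of all genes above the floor were higher and 53.0% lower. Adipocyte markers were higher in 4 of 6, with a summed signal of 2173 and 4039, and Cidec and Lep were below the floor on both arrays. Car3 alone read 234 and 1278, a log2 ratio of 2.45, and made up much of that rise. Fabp4 and Lpl had 0.84 and 0.53, Adipoq a bound of 0.62, and Plin4 and Retn were lower, at -0.31 and -0.18. Leukocyte markers were lower in 5 of 8, with a summed signal of 6421 and 5540 and with Cd3e and Itgam below the floor, and urothelial markers in 3 of 4, with 6868 and 4901. Basal epithelial markers were split, 3 higher and 3 lower, as were skeletal muscle markers at 2 and 2, and endothelial markers had a median of 0.00. Nerve and glial markers had 2 of 3 higher. The part of these markers in the members' differences was not tested.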

How the data were processed

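The series measured RNA of 1 wild-type and 1 knockout ventral prostate sample on 1 Affymetrix mouse array each. Per the labels, 5 ug of total RNA was made into biotin-labelled cRNA. The deposited values are linear intensity (signal) values for 45101 probe sets, from GCOS 1.4 per the submitters' processing notes. No settings are given there. The trimmed mean without the highest and lowest 2% was 500.0 on both arrays. Depth has no meaning for arrays, and their number limits the precision.

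Of 45037 non-control probe sets 34945 carried 1 symbol in the platform annotation, 932 several and 9160 none, and only the first kind was used. All 53 member symbols matched the GRCm38.p6 gene table by Entrez ID. Ratios, the floor, the 2-fold and 1.5-fold thresholds and list medians were computed in Python 3.11.15 with numpy and pandas. No pseudocount was added. Every member above the floor was named with both signals, and in the other pathway lists up to 2 genes with the highest and 2 with the lowest ratios, with Gsk3b. Tnfrsf19, Lgr5, Myc, Ccnd1, Wls, Frzb and the cell type markers were named after their values were seen. The steps were tested on simulated arrays with planted differences larger than 2-fold, so recovery of smaller differences was not tested. Alternatives were 3 scalings, 2 other floors, no floor, a pseudocount of 50, 3 other choices of probe set and other fold thresholds. The members and lists were chosen with earlier results of these data known. No replicates exist, so no p-value is given.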

Additional observations from a re-analysis of the deposited data

How the results depend on the processing

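The count of members past 2-fold, 0 each way, stayed at 0 under quantile normalization, loess, the floor at the 70th percentile, a pseudocount of 50, the 3 other choices of probe set and a 3-fold threshold. At 1.5-fold, with the deposited scaling, it was 2 higher and 4 lower. Median centring gave 1 higher, Tcf7l1. The floor at the 30th percentile gave 2 lower, Wnt3a and Wnt10a, and no floor gave 2 higher (Lrp5 and Wnt1) and 4 lower (Wnt2b, Wnt3, Wnt3a and Wnt10a), all of them at signals under the floor in use on at least 1 array.

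The members' median log2 ratio of -0.02 became 0.15 under median centring, -0.14 with the floor at the 30th percentile, -0.14 with no floor and -0.20 with the median over probe sets, and was within -0.04 to 0.00 under the rest, among them the removal of the antagonists, which was chosen after seeing the data. Shifts were judged against the SD of 0.357 between probe sets of a gene, scaled to the number of members for medians. The median over probe sets turned the sign of 9 of 33 members, median centring of 5 of 31, quantile normalization of 4 of 31 and loess of 3 of 31. Each floor and the pseudocount turned 0, and leaving out the probe sets that carry an s, x or a suffix turned 1 and took away Wif1 and Ctnnb1, which have no others. The probe set closest to no change turned 1. The antagonists' median ran from -0.50 to -0.27. No paired analysis was possible because each group has 1 sample, and no replicate could be left out. Signals near the floor limit what can be read of the ligands.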
